A study of Mus musculus with 20 samples.

Results

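The genes described here are the chemokine gene Xcl1 and genes that mark dendritic cells or guide their development and migration: Xcr1, Batf3, Clec9a, Flt3, Irf8, Zbtb46, Itgax, Ccr7 and Siglech. They were chosen by gene symbol, and 7 of these 10 were found among the 14633 genes of the expression table: Xcl1, Clec9a, Batf3, Irf8, Zbtb46, Itgax and Ccr7. Xcr1, Flt3 and Siglech were not analysed here. All 7 passed the filter on low values, 1 FPKM (a level normalised to transcript length and library size) or more in at least 5 libraries, and 5 of them reached 1 FPKM in every library. Clec9a did so in 17 of 19 and Zbtb46 in 18 of 19.

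Dendritic cells take up antigen and show it to T cells. The class called cDC1 depends on the transcription factors Irf8 and Batf3, carries the dead-cell receptor Clec9a, passes antigen from engulfed cells to CD8 T cells and bears XCR1, the receptor for XCL1. XCL1 (lymphotactin) is secreted mainly by NK cells and activated CD8 T cells, and maturing dendritic cells gain CCR7, which leads them toward the lymph node.

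Poly-A RNA was sequenced from mouse tumors that HEPA1-6 cells, a mouse hepatoma line, formed under the skin of C57/BL6 mice over 4 weeks. The tumors had received a control antibody (4 libraries, replicates 1, 2, 3 and 5), the control antibody plus GSK343 (5 libraries), an anti-CXCL10 antibody (5) or the anti-CXCL10 antibody plus GSK343 (5). GSK343 inhibits EZH2, the histone methyltransferase of the Polycomb repressive complex, and CXCL10 is a chemokine that draws T cells and NK cells. The labels give no doses, treatment schedule, mouse age or sex, and do not say whether each tumor came from a different animal, so the p-values reflect library-to-library spread, which may be technical.

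The samples were whole tumors. Genes of hepatoma cells were abundant in all of them, with the 13 listed hepatoma and hepatocyte genes summing to between 4622 and 11597 FPKM per library. In bulk tissue, fewer cells of a type and less RNA per cell cannot be told apart. The 7 genes are also not particular to dendritic cells: macrophages express Irf8 and Itgax, NK cells and some T cells Itgax, activated T cells Batf3, naive T cells Ccr7, and endothelial cells Zbtb46. Skeletal muscle RNA varied between libraries. The 16 muscle markers in the table summed to 43.1 to 134 FPKM with the control antibody, 76.8 to 2635 with the control antibody plus GSK343, 30.0 to 356 with anti-CXCL10 and 41.3 to 148 with both, and replicates 4, 3 and 5 of the control antibody plus GSK343 held the 3 highest muscle scores (the mean log2(FPKM + 1) of the muscle markers) of all 19 libraries.

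The sequence before RefSeq starts (GRCm38.p6) was read next. The promoter table used held 7 entries that matched 6 of the 7 genes, with 2 for Irf8, and the 250 bases before each start were searched on both strands for IRF, ETS-IRF, IRF-AP-1, AP-1, T-box and RUNX motifs. The starts of Batf3 and Zbtb46 and the second of Irf8 lie inside the gene spans given below, not at their 5′ ends. Those of Xcl1, Clec9a and Itgax are shown because the results on the ligand, on cDC1 and on CD11c turn on these 3 genes, and each held a match, in capitals. They lie at chr1:164935523-164935772 on the minus strand (Xcl1), chr6:129408612-129408861 on the plus strand (Clec9a) and chr7:128129300-128129549 on the plus strand (Itgax), and are written 5′ to 3′ along the gene.
Xcl1: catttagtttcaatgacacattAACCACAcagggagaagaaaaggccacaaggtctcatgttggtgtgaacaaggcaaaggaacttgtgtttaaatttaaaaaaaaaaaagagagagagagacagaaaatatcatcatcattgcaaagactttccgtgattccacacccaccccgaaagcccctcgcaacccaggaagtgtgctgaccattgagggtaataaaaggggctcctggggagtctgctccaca
Clec9a: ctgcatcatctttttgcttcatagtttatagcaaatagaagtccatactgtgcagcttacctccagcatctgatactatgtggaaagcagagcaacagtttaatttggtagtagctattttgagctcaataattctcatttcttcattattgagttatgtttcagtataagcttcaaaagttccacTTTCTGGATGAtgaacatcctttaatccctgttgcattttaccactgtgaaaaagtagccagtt
Itgax: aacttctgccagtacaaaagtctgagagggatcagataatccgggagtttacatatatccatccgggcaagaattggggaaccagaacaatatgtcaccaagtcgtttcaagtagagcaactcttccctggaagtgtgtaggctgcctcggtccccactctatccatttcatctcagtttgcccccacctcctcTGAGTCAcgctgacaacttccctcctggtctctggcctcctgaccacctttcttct

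Counting back from -1, the base before the start, Xcl1 held a RUNX motif (TGTGGTT, on the opposite strand) at -228 to -222. RUNX factors act in T cells and NK cells, and 4.40% of 32851 mouse promoters of the same length held this motif. Clec9a held TTTC and TGA 4 bases apart, the order of letters in the composite site shared by IRF and AP-1 factors, at -64 to -54, against 3.82% of promoters. Itgax held the AP-1 motif TGANTCA at -56 to -50, as did Zbtb46 at -61 to -55 from its internal start, against 6.75% of promoters. The IRF element (GAAA and GAAA 2 bases apart, 2.98% of promoters), the ETS-IRF composite (GGAA and GAAA 2 bases apart, 2.30%) and the T-box motif AGGTGTGA (1.12%) had no match in the 7 promoters of these genes. A match is a description of the letters and not a binding site, and the expression data do not bear on binding.

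Under the control antibody, the order of the levels ran from Irf8 at 40.6 FPKM ± 6.98 (SD, n = 4) and Itgax at 14.8 ± 3.95 through Batf3 at 4.66 ± 0.887 to Xcl1 at 2.24 ± 0.506, Zbtb46 at 1.86 ± 0.785, Ccr7 at 1.78 ± 0.328 and Clec9a at 1.09 ± 0.0518. FPKM is a level per transcript length, so these genes can be ordered by it. The libraries of Irf8, Itgax and Batf3 did not overlap, whereas Xcl1, Zbtb46 and Ccr7 could not be ordered beyond their spread. Clec9a, the gene most restricted to cDC1 among the 7, was the lowest on average. With the control antibody plus GSK343 the same order began with Irf8 at 62.7 ± 11.5 FPKM and Itgax at 35.3 ± 11.1 (SD, n = 5), but Batf3 at 7.93 ± 3.41 and Xcl1 at 6.98 ± 2.95 then overlapped. Below them came Ccr7 at 2.66 ± 0.892, Zbtb46 at 1.94 ± 0.927 and Clec9a at 1.90 ± 0.553, which overlapped one another. Xcl1 averaged 2.37 ± 0.724 FPKM with anti-CXCL10 and 3.06 ± 0.601 with both agents (SD, n = 5), and Clec9a 1.16 ± 0.156 and 1.05 ± 0.313.

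**Figure D1:**
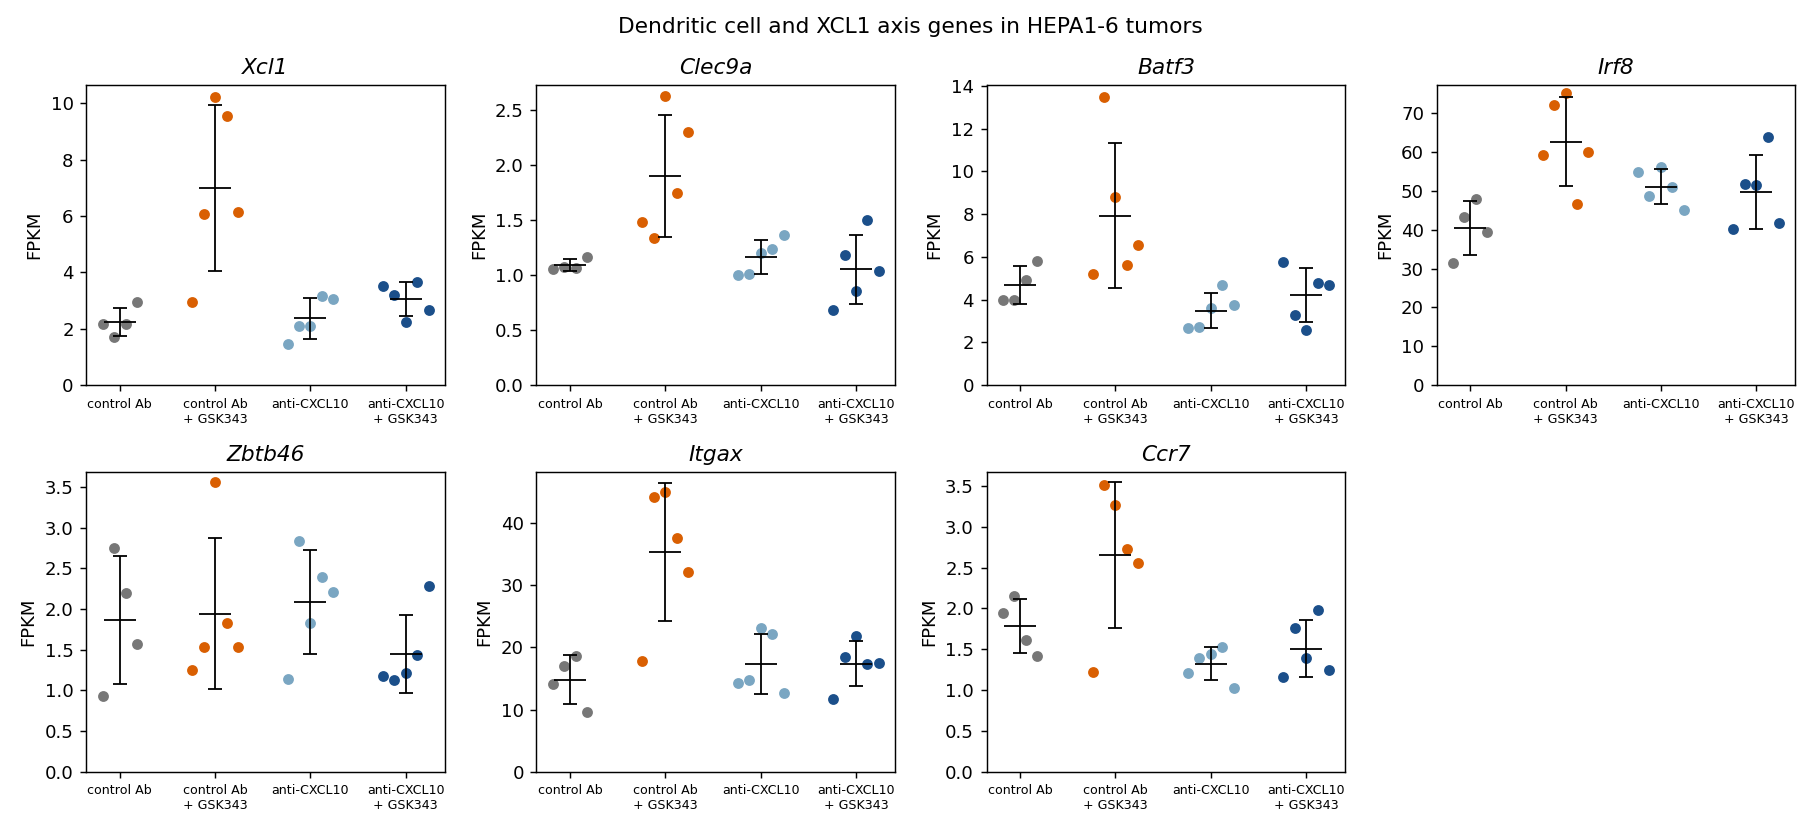
FPKM (y axis, from 0) of each of the 7 genes in every library of the 4 groups (x axis). Points are libraries, the long horizontal line is the group mean and the bars are 1 SD; for Xcl1 and Clec9a all 5 libraries of the control antibody plus GSK343 lie above all 4 control antibody libraries.

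The first comparison asked what GSK343 did to these genes when CXCL10 was not neutralised. Xcl1, Itgax and Irf8 rose: Xcl1 to 3.12 times its mean under the control antibody, Itgax to 2.38 times and Irf8 to 1.54 times. Those 3 were the members called among the 7, against 4.36% of 14385 genes called higher. Clec9a, Batf3, Ccr7 and Zbtb46 did not pass the test. Differences below are on the log2(FPKM + 1) scale, which understates the change of low genes such as Clec9a, Zbtb46 and Ccr7, and are called at an adjusted p (limma, Benjamini-Hochberg over all tested genes) under 0.05.

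Xcl1, the ligand, measured 2.16, 1.71, 2.16 and 2.93 FPKM in the 4 control antibody libraries and 2.95, 6.08, 10.2, 9.54 and 6.13 FPKM in the 5 libraries with the control antibody plus GSK343. The groups did not overlap, although replicate 1 of the treated group lay just above the highest control. The difference was 1.22 ± 0.24 (SE; 95% interval 0.71 to 1.73; limma adjusted p = 0.00721). Leaving out each of the 19 libraries in turn, the call of Xcl1 held every time, with adjusted p from 0.000334 to 0.0287. The gene lies at chr1:164931644-164935527 (GRCm38, minus strand) and overlaps the gene model Gm20743 on the other strand. Whether counting used the strand is not given in these sources.

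Among the genes of the cDC1 lineage, Irf8, the transcription factor needed for cDC1 development (chr8:120736358-120756694, plus strand), measured 31.6, 43.3, 48.1 and 39.4 FPKM with the control antibody and 59.2, 72.3, 75.2, 46.5 and 60.2 FPKM with GSK343 added. Replicate 4 fell within the control range and the other 4 lay above it. Its difference was 0.61 ± 0.15 (SE; 95% interval 0.29 to 0.93; limma adjusted p = 0.0239). That call was lost when control antibody replicate 1 (adjusted p = 0.109) or 5 (0.0705), or replicate 2 (0.0641) or 3 (0.0734) of the treated group, was left out. Irf8 overlaps the gene model Gm20388 on the same strand, so reads of the pair could be shared in counting, which was not tested.

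Clec9a, the dead-cell receptor of cDC1 (chr6:129408862-129424764, plus strand), measured 1.06, 1.07, 1.07 and 1.17 FPKM against 1.48, 1.33, 2.63, 1.75 and 2.31 FPKM. Its groups did not overlap either, so that 2 of the 7 genes were higher without overlap, against 4.05% of all tested genes. The difference of 0.45 ± 0.13 (SE; 95% interval 0.17 to 0.73) nevertheless missed the threshold (limma adjusted p = 0.0569). It passed with median-ratio scaling (0.0487) and without replicate 1 (0.027) or 2 (0.0416) of the treated group, or without replicate 4 of anti-CXCL10 plus GSK343 (0.048). Clec9a overlaps Clec1b on the same strand, so reads of the pair could be shared in counting. Clec1b was highest, at 21.5 FPKM, in replicate 2 of the treated group, where Clec9a was lowest. With the control antibody Clec1b was highest in replicate 1 (10.7 FPKM), where Clec9a was lowest. In that group Clec1b was lowest in replicate 5 (3.50 FPKM), where Clec9a was highest. Under anti-CXCL10, however, both genes were lowest in replicate 1 (1.0 FPKM for Clec9a, 5.05 for Clec1b) and highest in replicate 5 (1.37 and 10.7). With both agents replicate 1 was again lowest for both (0.683 and 4.57 FPKM), but Clec9a was highest in replicate 4 and Clec1b in replicate 5. Sharing of reads was not tested.

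Batf3, the partner of Irf8 in cDC1 (chr1:191097847-191108945, plus strand), measured 3.96, 3.96, 4.92 and 5.80 FPKM against 5.19, 13.5, 8.81, 5.61 and 6.54 FPKM. Replicate 2 was the highest and 3 of the 5 treated libraries exceeded every control. The difference of 0.60 ± 0.23 (SE; 95% interval 0.11 to 1.08) did not pass (limma adjusted p = 0.154).

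Itgax encodes CD11c, the integrin chain used to mark dendritic cells and also found on macrophages (chr7:128129547-128150656, plus strand). It measured 14.2, 17.0, 18.6 and 9.56 FPKM with the control antibody and 17.9, 44.1, 45.0, 37.6 and 32.1 FPKM with GSK343 added. Replicate 1 of the treated group fell within the control range, and the other 4 were well above it. The difference was 1.17 ± 0.26 (SE; 95% interval 0.63 to 1.71; limma adjusted p = 0.0132), and it was lost without control antibody replicate 5 (adjusted p = 0.0583).

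Ccr7, the homing receptor of mature dendritic cells (chr11:99144196-99155077, minus strand), measured 1.94, 2.15, 1.62 and 1.42 FPKM against 1.22, 3.51, 3.26, 2.73 and 2.56 FPKM. Replicate 1 was below every control and the other 4 were above every control. The difference of 0.36 ± 0.17 (SE; 95% interval 0.01 to 0.71) did not pass (limma adjusted p = 0.252), but did so without that replicate (0.0109). Zbtb46, a factor of conventional dendritic cells that endothelium also expresses (chr2:181387762-181459426, minus strand), spanned 0.936 to 2.75 FPKM in the controls and 1.25 to 3.56 FPKM in the treated group. These ranges overlapped almost fully, and the difference was 0.03 ± 0.22 (SE; 95% interval -0.44 to 0.50; limma adjusted p = 0.964).

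Muscle RNA moved with this comparison. With the muscle score as a covariate none of the 7 genes was called, against 6 of 14385 genes called higher. The differences were 0.89 for Xcl1 (limma adjusted p = 0.156), 0.85 for Itgax (0.22) and 0.61 for Irf8 (0.175). Without the 3 libraries richest in muscle RNA they were 0.72 (0.207), 0.92 (0.237) and 0.69 (0.111), with 2 treated libraries left, and the count over all genes went from 787 to 15. A fit on the compared groups alone also called none of the 7, against 180 of 14385 genes called higher. Its adjusted p (limma) was 0.0648 for Xcl1, 0.0706 for Itgax and 0.0864 for Irf8. The part of muscle tissue in these differences was not tested further. Within the treated group, Xcl1, Clec9a, Irf8, Itgax and Zbtb46 were highest in replicate 3, which was among the 3 richest in muscle RNA. Batf3 and Ccr7 were highest in replicate 2, which was not. Replicate 4, the richest in muscle RNA, was highest for none of the 7 genes. In it Irf8 was lowest (46.5 FPKM) and Xcl1 next to the highest (9.54 FPKM).

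The same question was asked in tumors given anti-CXCL10. No member was called, and neither was any of the 14385 genes (0.0%) by limma, with 418 of all genes and 0 of the 7 at an unadjusted p under 0.05. Xcl1 measured 1.45, 2.09, 2.1, 3.17 and 3.06 FPKM with anti-CXCL10 and 3.53, 3.21, 2.24, 3.67 and 2.67 FPKM with anti-CXCL10 plus GSK343, and the groups overlapped. Its difference was 0.28 ± 0.23 (SE; 95% interval -0.20 to 0.76; limma adjusted p = 0.9997). For Itgax the difference was 0.02 ± 0.24 (SE; 95% interval -0.49 to 0.52) and for Irf8 it was -0.05 ± 0.14 (SE). Those of Clec9a (-0.09 ± 0.13), Batf3 (0.20 ± 0.22), Ccr7 (0.10 ± 0.16) and Zbtb46 (-0.32 ± 0.21) were likewise within the spread between libraries.

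Whether the GSK343 difference itself depended on the antibody was tested by the interaction, the difference under anti-CXCL10 minus that under the control antibody. No member passed, against 0.0626% of all genes (9 of 14385), although 4 of the 7 and 1862 of all genes had an unadjusted p under 0.05. The estimates were negative for all 7: -1.15 ± 0.35 for Itgax (SE; limma adjusted p = 0.177), -0.94 ± 0.33 for Xcl1 (0.223), -0.66 ± 0.21 for Irf8 (0.182) and -0.54 ± 0.18 for Clec9a (0.211). Without replicate 1 of the control antibody plus GSK343, the library low in Xcl1, Itgax and Ccr7, Xcl1 (0.0255) and Itgax (0.0237) passed. Thus a different response of these genes to GSK343 under the 2 antibodies was not shown with all libraries.

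**Figure D2:**
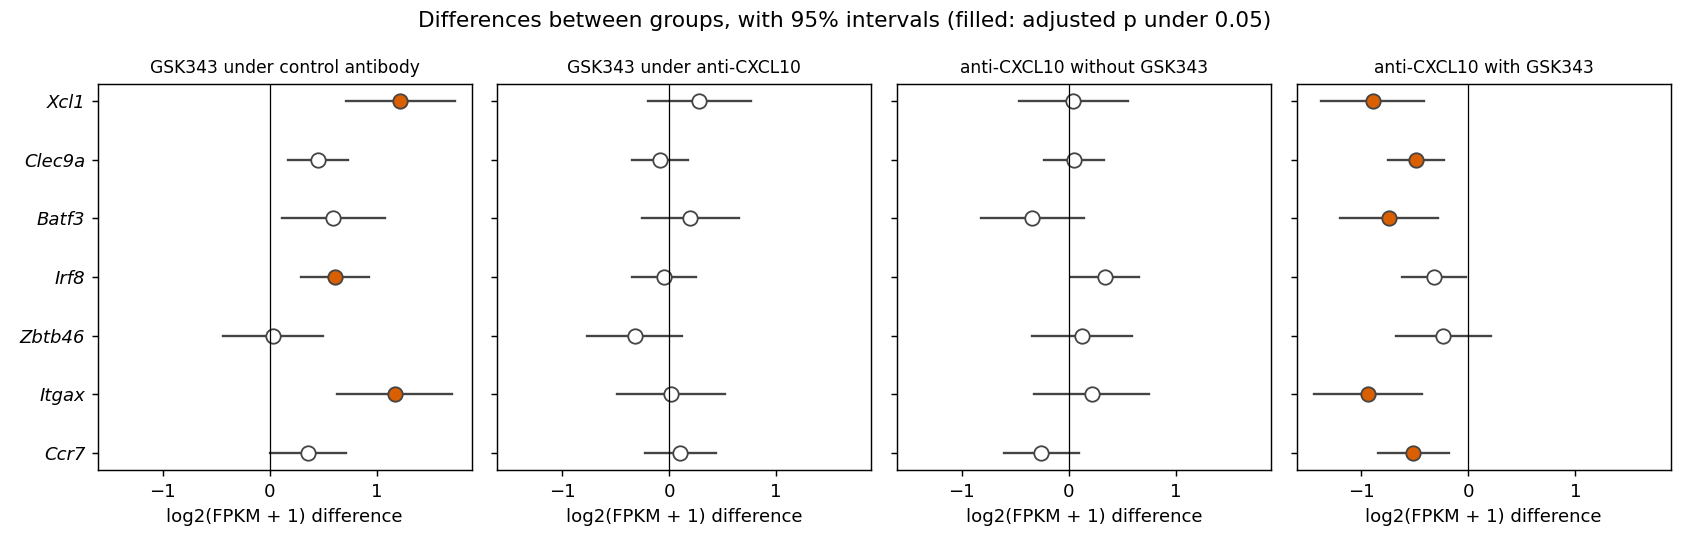
Difference in log2(FPKM + 1) (x axis) with its 95% interval for each gene (rows) in 4 comparisons (panels); filled points passed an adjusted p of 0.05. Xcl1, Irf8 and Itgax are filled for GSK343 under the control antibody, and Xcl1, Clec9a, Batf3, Itgax and Ccr7 for anti-CXCL10 in tumors given GSK343.

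Anti-CXCL10 without GSK343 was compared with the control antibody next. None of the 7 genes was called, against 0.0139% of all genes (2 of 14385, limma), with 1 of the 7 and 979 of all genes at an unadjusted p under 0.05. That 1 was Irf8, which measured 54.8, 48.6, 56.3, 51.0 and 45.0 FPKM with anti-CXCL10. All 5 libraries were above the control mean, but the lowest lay within the control range, and the difference was 0.34 ± 0.15 (SE; 95% interval 0.02 to 0.66; limma adjusted p = 0.70). Ccr7, at 1.21, 1.39, 1.45, 1.53 and 1.03 FPKM, was below the control mean in all 5 libraries, with a difference of -0.26 ± 0.17 (SE; limma adjusted p = 0.766). Batf3 measured 2.67, 2.73, 3.61, 4.67 and 3.74 FPKM, and its difference was -0.34 ± 0.23 (SE; limma adjusted p = 0.771). Xcl1 differed by 0.04, with group means of 2.24 and 2.37 FPKM.

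In tumors given GSK343, those with anti-CXCL10 were compared with those with the control antibody. Xcl1, Clec9a, Itgax, Batf3 and Ccr7 were lower with anti-CXCL10, 5 of the 7 genes, against 6.64% of all genes called lower. Their means were 0.439 (Xcl1), 0.554 (Clec9a), 0.492 (Itgax), 0.531 (Batf3) and 0.568 (Ccr7) times those with the control antibody plus GSK343. For each of the 5, every library with anti-CXCL10 plus GSK343 was below that mean, but 0 of the 7 were free of overlap between the groups, against 4.65% of all genes lower without overlap. This comparison uses the same 5 libraries with the control antibody plus GSK343 as the first, so these comparisons are not independent. The labels number the libraries separately for each antibody, so anything that followed that numbering cannot be told apart from the antibody.

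Xcl1 fell by 0.90 ± 0.23 on the log2 scale (SE; 95% interval -1.37 to -0.42; limma adjusted p = 0.0197). Replicate 1 of the control antibody plus GSK343, at 2.95 FPKM, was within the range of the anti-CXCL10 plus GSK343 libraries, and the other 4 were above it. Clec9a, at 0.683, 1.19, 0.859, 1.5 and 1.03 FPKM with both agents, fell by 0.49 ± 0.13 (SE; 95% interval -0.76 to -0.23; limma adjusted p = 0.0205). Only replicate 4 of these overlapped the control antibody plus GSK343 libraries. Itgax, at 11.8, 18.5, 21.8, 17.4 and 17.5 FPKM, fell by 0.94 ± 0.24 (SE; 95% interval -1.45 to -0.43; limma adjusted p = 0.0207), and its overlap came from replicate 1 of the control antibody plus GSK343.

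Batf3 measured 5.75, 3.28, 2.56, 4.78 and 4.66 FPKM with both agents and fell by 0.74 ± 0.22 (SE; 95% interval -1.20 to -0.29; limma adjusted p = 0.0374). Ccr7, at 1.16, 1.76, 1.39, 1.97 and 1.25 FPKM, fell by 0.51 ± 0.16 (SE; 95% interval -0.85 to -0.18; limma adjusted p = 0.0468). All but replicate 1 of these 5 Ccr7 values were within the range of the control antibody plus GSK343, whose own replicate 1 was low. Irf8 measured 40.2, 51.7, 51.4, 64.0 and 41.8 FPKM and did not pass (-0.33 ± 0.14, SE; limma adjusted p = 0.156), nor did Zbtb46 (-0.24 ± 0.21, SE; 0.521).

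Several of these calls depended on which libraries were used. Without replicate 3 of the control antibody plus GSK343 none of the 7 genes was called, against 602 of 14385 genes called lower. Adjusted p (limma) was then 0.0573 for Xcl1, 0.0586 for Clec9a and 0.0585 for Itgax. Clec9a also missed without replicate 5 of that group (0.0521) or replicate 1 of anti-CXCL10 plus GSK343 (0.0552), and Itgax without replicate 2 of the former (0.0556) or replicate 1 of the latter (0.0559). With each of the 19 libraries left out in turn, Batf3 missed 6 times and Ccr7 17 times. With the muscle score as a covariate, or without the 3 libraries richest in muscle RNA, none of the 7 was called. Under these settings 96 and 268 of 14385 genes were called lower. Xcl1 was then at -0.57 (limma adjusted p = 0.244) and -0.39 (0.36), and Batf3 was at -0.90 without those libraries (0.0946). A fit on the compared groups alone called 1 of the 7, Itgax, against 686 of 14385 genes called lower.

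**Figure D3:**
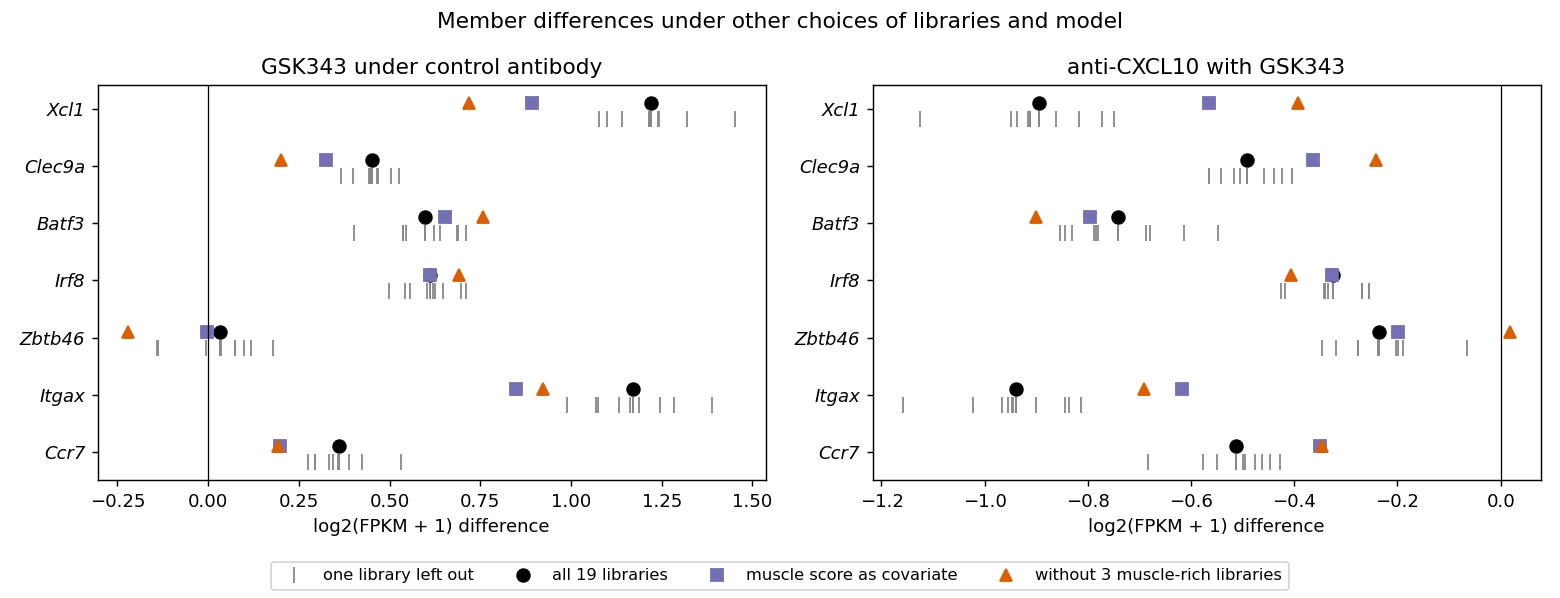
Difference in log2(FPKM + 1) (x axis) of each gene (rows) for GSK343 under the control antibody (left) and for anti-CXCL10 in tumors given GSK343 (right), with all 19 libraries (circle), with each library left out in turn (ticks), with the muscle score as a covariate (square) and without the 3 libraries richest in muscle RNA (triangle). Xcl1 moves toward 0 in both panels under both muscle settings, and Batf3 does not.

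Other genes of the same pathways were read from lists. Genes listed for the cells that secrete XCL1 rose: of 16 tested genes of NK cells and CD8 T cells, 14 were higher with GSK343 under the control antibody and 0 lower, with a median difference of 1.24 against -0.03 over all genes. Klre1, an NK cell receptor, went from a mean of 0.922 to 4.19 FPKM (1.39 ± 0.20, SE; limma adjusted p = 0.00185), and the chemokine gene Ccl4 from 9.18 to 29.4 FPKM (1.56 ± 0.28, SE; 0.00473). Klrd1, which encodes the NK receptor chain CD94, and Cd3e, a chain of the T cell receptor complex, rose by 1.51 and 1.19. With anti-CXCL10 added to GSK343, 11 of the 16 fell and 0 rose (median -0.93 against 0.03). Macrophage markers moved the same way in both comparisons. Which cells carried the transcripts of this list, Ccl3, Ccl4 and Cd3e among them, was not tested. The 18 genes of this list in the table summed to 115 to 191 FPKM with the control antibody, 236 to 704 with GSK343 added, 128 to 212 with anti-CXCL10 and 138 to 253 with both. Ncr1, Klrb1c, Eomes, Crtam, Tbx21 and Fasl were not used in the counts of called genes, although Tbx21 and Fasl are part of the sums. With the muscle score as a covariate, or without the 3 libraries richest in muscle RNA, none of the 16 was called in either comparison, while the medians for GSK343 under the control antibody were 1.04 and 1.0. A fit on the compared groups alone called 4 of 16.

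The dendritic cell classes were followed through genes outside the 7. Of 11 further cDC1 genes, 2 were higher with GSK343 under the control antibody and 0 lower (median 0.17): Ifi205, from 21.0 to 45.1 FPKM (1.07 ± 0.21, SE; limma adjusted p = 0.00747), which macrophages also express, and Ppt1, a lysosomal enzyme of most cells (0.29 ± 0.08, SE; 0.033). Tlr3, the receptor for double-stranded RNA that cDC1 carry, was at 0.27 ± 0.14 (SE; 0.328). None of the 7 cDC2 genes passed, although the lectins Clec10a (0.97 ± 0.30, SE; 0.0739) and Mgl2 (0.99 ± 0.31, SE; 0.0762) had large estimates. Of 10 plasmacytoid dendritic cell genes, Ly6c2, also a monocyte gene, rose from 20.4 to 60.8 FPKM (limma adjusted p = 0.00799) and Tlr7 from 0.802 to 1.68 FPKM (0.0199), and the other 8 did not pass. With anti-CXCL10 added to GSK343, Ifi205 and the lipid amidase gene Naaa were lower among the cDC1 genes (median -0.17 over the 11) and Cd24a was higher (0.31; limma adjusted p = 0.0398). Klf4, a transcription factor, was lower (-0.64; 0.0138) and Epcam, which tumor epithelium also expresses, higher (0.55; 0.00594) among the cDC2 genes. Ly6c2, Tlr7, Bst2 and Irf7 were lower among the plasmacytoid genes (median -0.58 over the 10). Cd24a and Klf4 were named after their values were seen.

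Maturation was followed through 20 genes of mature and migratory dendritic cells, of which 7 were higher with GSK343 under the control antibody and 0 lower (median 0.54). The 7 included the costimulatory ligand Cd86, from 5.04 to 10.4 FPKM (0.92 ± 0.17, SE; limma adjusted p = 0.00473), Pdcd1lg2, the gene of the PD-1 ligand PD-L2, from 14.7 to 29.7 FPKM (0.93 ± 0.17, SE; 0.0052), and Tnfsf9, the gene of 4-1BB ligand, from 0.835 to 1.96 FPKM (0.71 ± 0.18, SE; 0.0235). Tnfsf9 averaged under 1 FPKM with the control antibody, so it may have passed the filter only through the treated group. With anti-CXCL10 added to GSK343, 11 of the 20 fell and 0 rose (median -0.60). Macrophage and T cell markers moved the same way in both comparisons, and which cells carried the transcripts of this list was not tested. The CCR7 ligand genes Ccl19 (means of 0.566 and 2.13 FPKM; 0.88 ± 0.30, SE; 0.103) and Ccl21a (0.589 and 6.21 FPKM; 1.45 ± 0.61, SE; 0.20) did not pass, and Ccl21a has near-identical copies that counting could split.

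Growth factors and lineage factors of dendritic cells counted 6 higher and 0 lower of 22 (median 0.35), among them Spi1, which encodes PU.1 (17.1 to 31.8 FPKM, 0.83 ± 0.17, SE; limma adjusted p = 0.00843), and Csf1, the growth factor of macrophages (0.72 ± 0.16, SE; 0.0128). Batf, a relative of Batf3 that acts in T cells as well, rose from 3.08 to 6.85 FPKM (0.93 ± 0.17, SE; 0.00473) and was 1 of 3 called among 9 interferon regulatory factor and Batf family genes (median 0.28). Of 16 antigen uptake and cross-presentation genes 7 were higher and 0 lower (median 0.37), among them Cybb, the NADPH oxidase subunit of phagocytes (1.15 ± 0.20, SE; 0.00371), Syk, the kinase downstream of Clec9a (0.72 ± 0.13, SE; 0.0052), and Tap2, a peptide transporter (0.71 ± 0.15, SE; 0.0117). With anti-CXCL10 added to GSK343, 7 of the 22, 3 of the 9 (Batf, Irf2 and Irf7) and 5 of the 16 (Cybb, Syk, Tap2, Tapbp and B2m, named after its value was seen) fell and 0 rose. Of all the dendritic cell, interferon regulatory factor and cross-presentation genes of these lists, none was called higher in the first comparison under either muscle setting. The median of the 20 maturation genes was then 0.41 and 0.43.

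Macrophage, T cell and NK cell markers moved in the same direction as those of the 7 genes that were called. Ptprc, a leukocyte gene outside the lists, passed in neither comparison. It was at 0.80 ± 0.44 (SE; limma adjusted p = 0.361) with GSK343 under the control antibody. With anti-CXCL10 added to GSK343 it was at -1.04 ± 0.42 (SE; 0.123). Of 16 macrophage and monocyte markers, 11 were higher with GSK343 under the control antibody and 11 lower with anti-CXCL10 added to GSK343 (medians 0.81 and -0.76). For 16 T cell markers these counts were 13 and 11 (1.02 and -0.80). For 6 NK cell markers they were 4 and 3 (1.27 and -0.91), with Klre1, Klrd1 and Gzma in both counts and Prf1 in the first. The lists share genes, so their counts are not separate. These 4 NK cell genes, and Cd3e, Cd8a and Cd8b1 of the T cell markers, were also counted among the genes of cells that secrete XCL1. Of the macrophage markers, Csf1r was also among the growth and lineage factors and Ly6c2 among the plasmacytoid genes. The T cell markers summed to 75.7 to 125 FPKM per library with the control antibody, 151 to 382 with GSK343 added, 88.7 to 148 with anti-CXCL10 and 97.6 to 162 with both. For the NK cell markers the sums were 17.6 to 31.4, 28.6 to 84.0, 22.2 to 36.9 and 22.5 to 35.5 FPKM in the same order of groups. The macrophage sums overlapped across all 4 groups, at 2473 to 5202, 3869 to 6170, 3403 to 5733 and 3758 to 5591 FPKM. No marker of these lists was at 0 in all libraries of a group. The 2 B cell markers tested, Cd22 and Bank1, did not pass. No endothelial marker of 9 passed in either comparison (medians 0.09 and -0.30), and among 6 neutrophil markers Retnlg was higher in the first and Retnlg and Csf3r lower in the second (medians 0.30 and -0.49). With the muscle score as a covariate, or without the 3 libraries richest in muscle RNA, none of the macrophage, T cell or NK cell markers was called in either comparison. Their medians for GSK343 under the control antibody were then 0.79 and 0.71 for macrophages, 0.78 and 0.75 for T cells and 1.12 and 1.15 for NK cells. A fit on the compared groups alone called 0, 5 and 1 of them higher. How far the leukocyte content accounts for Irf8, Itgax, Batf3 and Ccr7 was not tested.

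**Figure D4:**
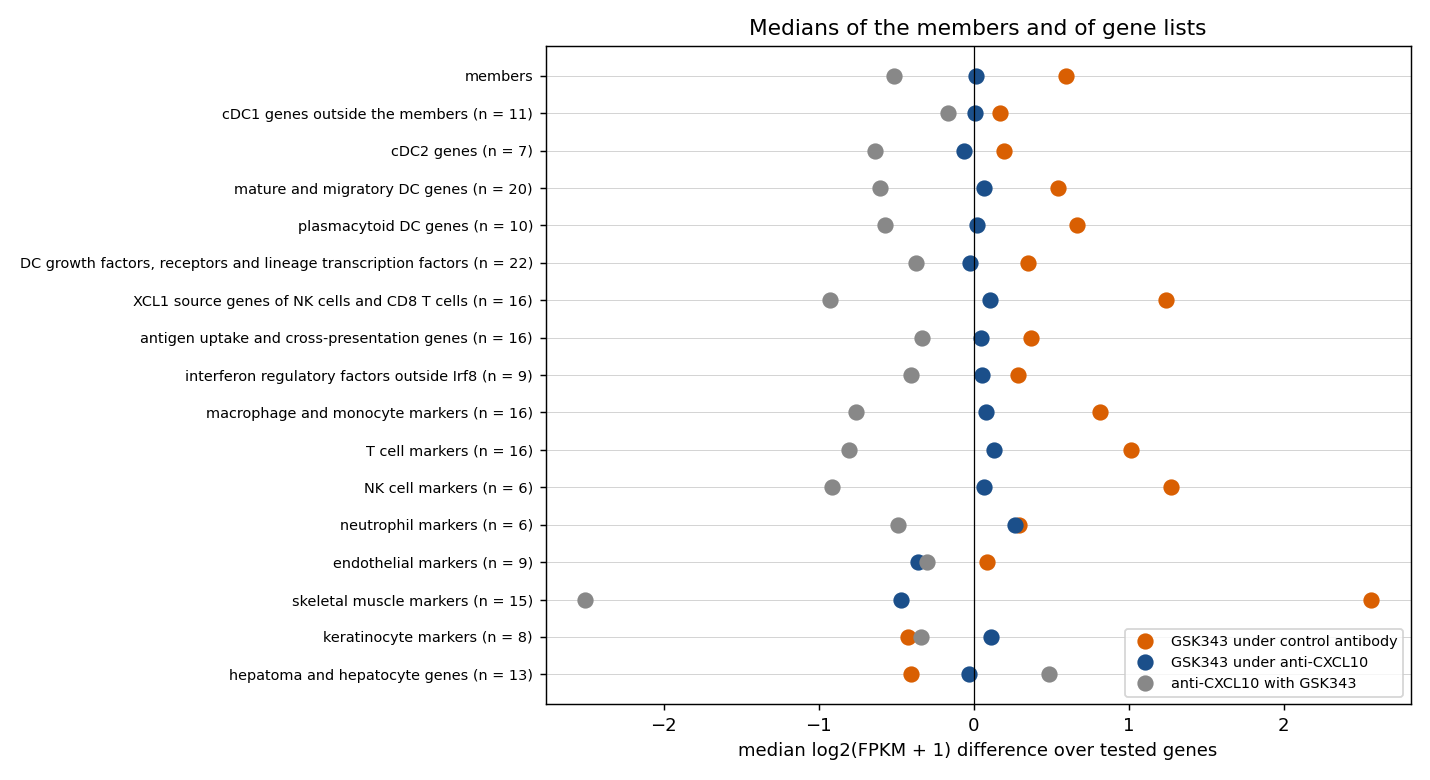
Median difference in log2(FPKM + 1) (x axis) over the tested genes of each list (rows) for GSK343 under the control antibody (orange), GSK343 under anti-CXCL10 (blue) and anti-CXCL10 in tumors given GSK343 (grey). The 7 genes described here (top row, 0.60, 0.02 and -0.51) lie among the leukocyte lists, whereas the muscle markers lie far out (2.56 and -2.51) and the hepatoma genes have the opposite signs (-0.40 and 0.49).

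Finally, the libraries were asked whether Xcl1 varied together with the other members inside the treatment groups. Except for replicate 1, the Xcl1 values of the control antibody plus GSK343 lie above those of the other groups. No correlation over the pooled values is therefore given, and group means were subtracted first. Over 19 libraries Xcl1 and Clec9a had a Pearson r of 0.52 and a Spearman rho of 0.55, with two-sided permutation p of 0.0915 and 0.0419 and 0.226 and 0.157 after Benjamini-Hochberg adjustment over 6 pairs. For Batf3 r was 0.46 and rho 0.51 (permutation p = 0.148 and 0.0522, adjusted 0.226 and 0.157). Neither passed. Leaving out the 2 libraries farthest from the Xcl1 median, replicates 3 and 4 of the control antibody plus GSK343, r was 0.47 for Clec9a and 0.61 for Batf3.

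The other members gave lower rank correlations. Ccr7 had r = 0.52 and rho = 0.24 (permutation p = 0.149 and 0.363, adjusted 0.226 and 0.544), Zbtb46 had r = 0.41 and rho = 0.28 (0.151 and 0.293, adjusted 0.226 and 0.544), and Itgax had r = 0.33 and rho = 0.14 (0.306 and 0.611, adjusted 0.367 and 0.733). Without the same 2 libraries these r values were 0.47, 0.27 and 0.23. Irf8 did not follow Xcl1 (r = -0.06, rho = -0.05; permutation p = 0.844 and 0.839, adjusted to the same values; -0.04 without those libraries). In the 14 libraries outside the control antibody plus GSK343, a choice made after the data were seen, r was 0.76 for Batf3, 0.46 for Clec9a, 0.09 for Zbtb46, -0.07 for Ccr7, -0.14 for Irf8 and -0.31 for Itgax. Outside that 1 group the r of Ccr7 and Itgax was thus negative and that of Zbtb46 small, and this change was not tested.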

How the data were processed

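The authors deposited 1 table of normalized expression for the series, and its values were taken as FPKM per gene. No header names the unit: the values are not whole numbers, and sums over genes weighted by gene length vary less between libraries (coefficient of variation 0.79%) than plain sums (4.06%), as FPKM would give. The submitters' processing notes name HISAT2 2.1.0 and TopHat2 2.1.0 (aligners), StringTie 1.3.3b and HTSeq 0.6.0 (quantifiers), Trimmomatic 0.33 (a trimmer) and the builds GRCm38 and mm10, without saying which tool made the table. The depth per library is unknown, because no steps worth 1 read were found in the low values, so no counting interval is given. The deposited FPKM values summed to between 533606 and 629679 per library. Every row had at least 1 FPKM in 4 or more libraries, so the table had been filtered on low values. The 21 rows of 8 repeated gene IDs were added together.

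The 7 genes and the gene lists were chosen with earlier results of these data known. The log2(FPKM + 1) values of 19 libraries entered 1 limma model of 4 group means (version 3.58.1, R 4.3.3, trend and robust empirical Bayes). The 20th labelled sample, replicate 4 of the control antibody, was not analysed here, and the series text speaks of 3 replicates where the labels number 5. Tests covered 14385 genes that reached 1 FPKM in 5 libraries or more and left out 248, with Benjamini-Hochberg adjustment over all tested genes and a threshold of 0.05. Klre1, Tlr7 and Tnfsf9, with control antibody means under 1 FPKM, may have passed this filter only through the control antibody plus GSK343 libraries. The fit was first tested on simulated data. The genes named are the 7 and, from each other list described, up to 4 with the smallest p for GSK343 under the control antibody, unless the text says otherwise. Alternatives were another pseudocount, 2 filters, 2 scalings, the compared groups alone, a replicate block, 2 settings for muscle RNA, and each library left out in turn.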

Additional observations from a re-analysis of the deposited data

Results flagged for a closer look

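Clec9a in control antibody replicate 5 measured 1.17 FPKM, the highest of 4 libraries of its group, far from the other 3 relative to their spread (1.06 to 1.07 FPKM). This came from a Dixon test of the highest and lowest library in 28 groups (7 genes in 4 treatment groups), of which chance alone marks about 1 in 20. None of the 7 interaction tests between GSK343 and the antibody passed.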

How the results depend on the processing

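Among the 7 genes, no difference that passed changed its sign under any alternative run. Under the control antibody, GSK343 changed 787 genes: 233 in a fit on the compared groups alone, 6 with the muscle score as a covariate, 15 without the 3 libraries richest in muscle RNA, and 299 to 1389 with each library left out. The members called, 3 of 7, were then 0, 0 and 0, and 1 to 5. Under anti-CXCL10 the count of 0 genes by limma was 0 to 1 with a library left out, the 1 without anti-CXCL10 replicate 1. The interaction (9 genes) gave 0 with the covariate, 1 without the muscle-rich libraries and 0 to 476 with each library left out, with 0 to 2 members. Anti-CXCL10 without GSK343 (2 genes) gave 1 in the compared groups alone, 0 without the muscle-rich libraries and 0 to 2 with each library left out. Anti-CXCL10 with GSK343 (1456 genes) gave 122 with the covariate, 497 without the muscle-rich libraries and 837 to 1829 with each library left out. Its 5 members were 2 with a filter of 5 FPKM (3 of the 7 tested), 3 with quantile normalization, 1 in the compared groups alone, 0 with the covariate, 0 without the muscle-rich libraries and 0 to 5 with each library left out. The cause of these changes was not tested beyond the smaller number of genes or samples that some settings use. The depth behind each value is unknown.

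The replicate numbers were checked for pairing. Of 27 same-numbered pairs of libraries, 12 had deviations from their group means that correlated over 0.1 (range -0.20 to 0.32). Of 19 libraries, 8 correlated best with a library of their own number. This check does not settle whether the number marks anything shared between groups, and the main model did not use the number. With it as a replicate block the interaction gave 57 genes and anti-CXCL10 without GSK343 gave 0. Among the 7 genes only Batf3 lost a call, for anti-CXCL10 with GSK343 (limma adjusted p = 0.0649).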

Other observations

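The genes whose levels followed those of 4 members most closely were read over all 19 libraries after subtracting group means, as Pearson r of log2(FPKM + 1). These values are descriptions over libraries that share tumor composition and treatment, with no test. For Xcl1 they were E2f6 (r = 0.81), Gimap4 (0.80), Grrp1 (0.79), Sapcd2 (0.78) and Mcm8 (0.77). For Clec9a they were Cnih4 (0.80), Mrpl4 (0.79), Ccdc69 (0.78), Zfp691 (0.78) and Meis3 (0.77). Irf8 was closest to Csrnp1 (0.83), Abcg1 (0.80), Lck (0.79), Pim1 (0.79) and Cyr61 (0.79). Ccr7 was closest to Vstm4 (0.89), Lama4 (0.87), Vwa9 (0.87), Ccdc88b (0.85) and Itgal (0.85). Only named protein-coding genes were searched, and Batf3, Itgax and Zbtb46 were not used as starting genes. No member appeared among the 5 closest genes of these 4, although Ccr7 and Itgax had r = 0.79.

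Foxa1, a transcription factor of hepatocytes and of HEPA1-6 cells, moved opposite to the dendritic cell genes: it was lower with GSK343 under the control antibody (4.2 and 2.32 FPKM; -0.65 ± 0.12, SE; limma adjusted p = 0.00478) and higher with anti-CXCL10 added to GSK343 (0.58 ± 0.11, SE; 0.00448). Among the 13 hepatoma and hepatocyte genes 0 were higher and 3 lower in the first comparison (Foxa1, Trf and Ttr), and 6 were higher and 1 lower in the second.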
